A study of Homo sapiens with 6 samples.

Results

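The genes described are 10 members of the tetraspanin family, TSPAN1, TSPAN3, TSPAN6, TSPAN8, TSPAN13, TSPAN15, CD9, CD63, CD81 and CD151. They were chosen by gene symbol, with earlier results of these data known, and each matched 1 row of the 60605 genes counted. RNA came from SW620, an established human colorectal cancer line grown from a lymph node metastasis. In 3 libraries the cells carried a lentivirus made from the pLVX-IRES-Puro plasmid with ELAPOR1, and in 3 libraries the same vector without an insert. All cells of both groups had been infected at a multiplicity of 20 and selected with 2 ug/ml puromycin, so the comparison is of transduced, drug-selected populations. The labels number the libraries of a group 1 to 3 without saying whether they came from separate infections or dishes, so p-values here rest on library-to-library spread that could be purely technical.

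Tetraspanins are small membrane proteins with a short and a long extracellular loop and 2 short cytoplasmic tails. They have few ligands of their own and act mainly by gathering integrins, proteases, adhesion molecules and signalling enzymes into membrane patches. CD9, CD81 and CD63 are widely used as surface markers of extracellular vesicles, and CD63 also resides on late endosomes and lysosomes. TSPAN8, once called CO-029, was identified as a tumour-associated antigen of gastrointestinal carcinomas. ELAPOR1, the overexpressed gene, encodes a transmembrane protein of endosomes and lysosomes.

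Of the 10 genes, TSPAN8 was the only one that rose in ELAPOR1 cells, by 38.8%. The 4 that fell were TSPAN13 (a change of -19.9%), CD151 (-13.5%), CD63 (-8.22%) and CD9 (-8.16%). TSPAN1, TSPAN3, TSPAN6, TSPAN15 and CD81 did not pass the threshold, an adjusted p under 0.05 in edgeR's quasi-likelihood test over all 16003 genes tested. Over all genes, 21.4% of tested genes passed, 10.0% as higher and 11.4% as lower, or 1607 against 1820 genes. With limma on log2(FPKM + 1) the split was 727 against 1406. The share over all genes was not matched for expression level. By vector FPKM, TSPAN1 and TSPAN8 lay at percentiles 41.8 and 64.9 of tested genes, and the others at 80.1 or above. The median log2 fold change of the 10 genes was -0.10, against 0.0041 for all tested genes. All 10 had enough reads to be tested, with 67 to 7392 counts per library. The libraries of the groups did not overlap for 7 of the 10, TSPAN3 and TSPAN15 being the ones among these that did not pass, while 33.8% of all tested genes showed no overlap.

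ELAPOR1 itself stood at 21494, 21112 and 20772 CPM in ELAPOR1 libraries, against 11.5, 11.0 and 8.73 CPM in vector libraries, where CPM is the count scaled to a fixed library size, for single genes with TMM factors. It took 2.06% to 2.12% of each ELAPOR1 library's counts, against at most 0.00116% of a vector library's. Totals were 16457436 to 19268166 counts per ELAPOR1 library and 16401813 to 20571924 per vector library. Of 11 colon epithelial markers, all but CDX1 were tested and had counts in every library. CDX1 had at most 2 counts in a library. Of the 10 tested, 5 fell and 1 rose, while 11.4% of all tested genes were lower and 10.0% higher. The summed level of the list was 7760 to 7812 CPM, for marker sums without TMM factors, in ELAPOR1 libraries, against 8510 to 8868 in vector libraries. EPCAM and CDH1 are also in the adhesion list described further on. CDH17 was the one that rose, and KRT8, KRT19, KRT20, CDX2 and CDH1 were those that fell. KRT20 had 4 to 50 counts per library, and KRT18 and EPCAM were among the 4 that did not pass. The summed level of the colon epithelial markers came mostly from KRT8 and KRT18. It moved in the same direction as CD9, CD63, CD151 and TSPAN13, and its part in their falls was not tested. Summed fibroblast markers stood at 25.3 to 30.6 CPM in ELAPOR1 libraries, against 17.8 to 19.1 in vector libraries, with 2 of 4 tested genes of 8 listed (ACTA2 and LUM) higher. Over all tested genes, 10.0% were higher. ACTA2 had only 3 to 18 counts per library, and COL1A1 and PDGFRB did not pass. Most of this fibroblast sum came from LUM. The fibroblast genes COL1A2, COL3A1, DCN and PDGFRA had at most 2 counts in any library. The part of these markers in the rise of TSPAN8 was not tested. None of the 3 tested immune markers of 6 listed passed, and their sum was 7.78 to 7.96 CPM in ELAPOR1 libraries and 5.64 to 7.93 in vector libraries. None of the 2 tested endothelial markers of 4 listed passed, and their sum was 1.94 to 2.78 CPM in ELAPOR1 libraries and 2.43 to 2.74 in vector libraries. CDH5 and KDR were at 0 in all libraries. As in any bulk sample, fewer expressing cells and less RNA per cell cannot be told apart.

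Start regions are shown for TSPAN8, the gene that rose, and for TSPAN13 and CD9, as 2 of the 4 that fell. They were chosen after the sequences had been seen, as examples of unlike base composition, and do not stand for genes that rose or fell. RefSeq windows on GRCh38.p14, each running from 250 bases before to 50 bases after a gene start, were matched by symbol for 7 of the 10 genes. Where a gene had several, the one nearest to a coding transcript start in GENCODE 29 was taken. The windows are chr12:71157760-71158059 (minus strand) for TSPAN8, chr7:16753505-16753804 (plus strand) for TSPAN13 and chr12:6200150-6200449 (plus strand) for CD9. Capitals mark GTTAAT, the half-site of HNF1 factors, in TSPAN8, and the GC box GGGCGG or its complement CCGCCC in the other pair.
TSPAN8: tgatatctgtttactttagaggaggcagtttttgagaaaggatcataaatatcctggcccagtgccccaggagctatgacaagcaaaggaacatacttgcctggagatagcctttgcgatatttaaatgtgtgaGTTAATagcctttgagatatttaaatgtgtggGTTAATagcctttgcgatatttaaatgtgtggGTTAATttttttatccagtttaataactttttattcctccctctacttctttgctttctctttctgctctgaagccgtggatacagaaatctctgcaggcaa
TSPAN13: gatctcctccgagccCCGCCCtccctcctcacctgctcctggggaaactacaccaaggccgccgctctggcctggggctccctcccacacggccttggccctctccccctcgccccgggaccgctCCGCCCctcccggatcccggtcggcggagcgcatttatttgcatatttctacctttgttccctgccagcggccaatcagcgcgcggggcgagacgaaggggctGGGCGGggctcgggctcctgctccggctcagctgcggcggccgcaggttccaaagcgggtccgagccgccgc
CD9: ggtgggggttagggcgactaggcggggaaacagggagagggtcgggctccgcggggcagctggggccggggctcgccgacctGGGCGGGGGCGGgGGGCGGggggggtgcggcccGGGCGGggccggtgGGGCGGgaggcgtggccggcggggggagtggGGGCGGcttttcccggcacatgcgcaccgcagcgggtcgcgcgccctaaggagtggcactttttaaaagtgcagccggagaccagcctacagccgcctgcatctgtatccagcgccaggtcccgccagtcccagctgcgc
The TSPAN8 window was 38.0% G and C, against 71.3% for TSPAN13, 75.7% for CD9 and a median of 58.7% over all 35116 windows. Among genes that did not pass, TSPAN6 had windows of 47.3% and 42.3% G and C, with 1 and 0 GC boxes. The TSPAN1 window was 52.0% G and C with 0 GC boxes, and the TSPAN15 window 69.0% with 2. GTTAAT occurred 3 times in the TSPAN8 window, at 116, 84 and 52 bases before the start, that is once every 32 bases within a repeated stretch. On either strand, 6.88% of all windows held this motif and 0.0285% held it 3 times or more. A second RefSeq window of TSPAN8, which starts further upstream, was 42.3% G and C and held 1 GC box and no GTTAAT. Of the other windows of CD9, one held 3 GC boxes, and those with 55.3% and 45.0% G and C held none. CD63, which fell as well, has several windows, of 56.0% to 78.3% G and C, that held between 0 and 3 GC boxes and no GTTAAT. The TSPAN8 window shown held no GC box, while the TSPAN13 window held 3 and the CD9 window 6. GC boxes occurred in 45.0% of all windows, on either strand, and 3 times or more in 15.8%. Another motif searched, CCAAT, occurred once in the TSPAN13 window, in neither of the other windows shown, and in 34.6% of all windows. The motifs were chosen after the sequences had been seen, no match overlapped one of another motif in the windows shown, and a match describes letters only.

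TSPAN8 (ENSG00000127324, GRCh38 chromosome 12, 71125085 to 71441898, minus strand) encodes a surface tetraspanin of intestinal and other epithelia that associates with EPCAM, claudin-7 and CD44 in carcinoma cells. It stood at 22.7, 27.1 and 25.1 CPM in ELAPOR1 libraries, against 18.4, 18.3 and 17.3 CPM in vector libraries. Every ELAPOR1 library lay above every vector library, and the ELAPOR1 libraries were spread more widely. The means were 24.96 ± 2.18 CPM in ELAPOR1 cells and 18.0 ± 0.615 CPM in vector cells (SD, n = 3 each). For TSPAN8 the log2 fold change came to 0.47 ± 0.0922 (SE), at an adjusted p of 4.35e-05 in edgeR's test. The authors' deposited table gives 0.47 at an adjusted p of 1.82e-05 for TSPAN8, and there too TSPAN8, TSPAN13, CD151, CD9 and CD63 are the 5 of the 10 under 0.05.

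**Figure D1:**
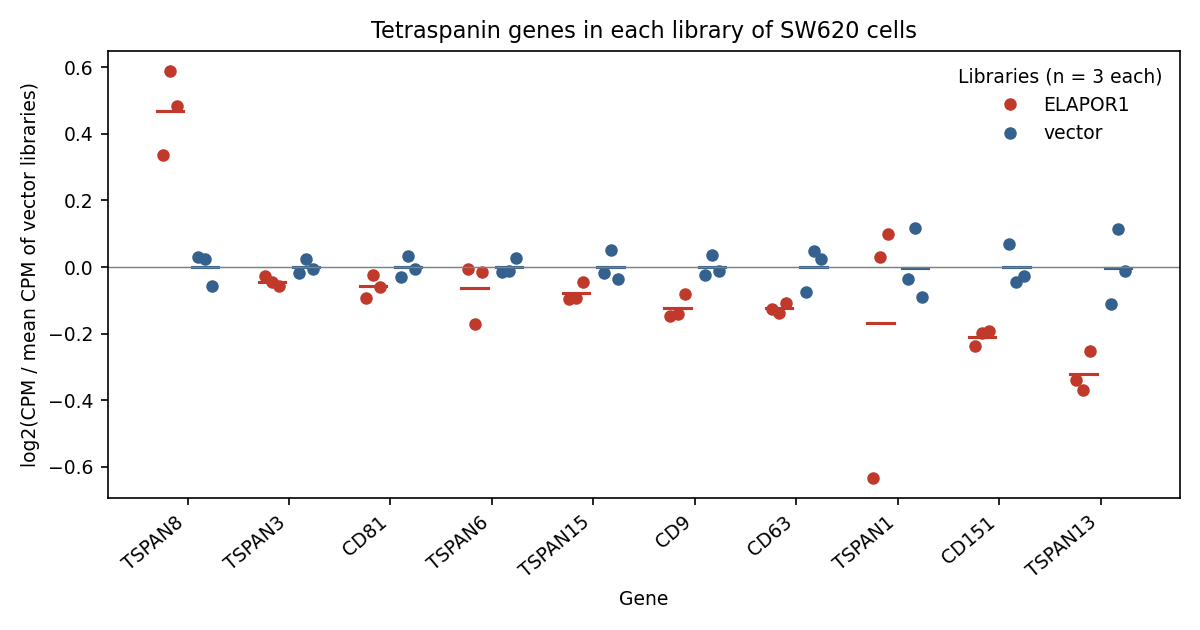
Each point is 1 library, red for ELAPOR1 and blue for vector, and short lines are group means. The vertical axis is the log2 ratio of a library's CPM to the mean CPM of the vector libraries. TSPAN8 is the only gene whose ELAPOR1 points all lie above its vector points, while 1 ELAPOR1 library of TSPAN1 lies far below the other two.

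TSPAN8 lies next to LGR5, the R-spondin receptor of intestinal stem cells, on the other strand. LGR5 had a log2 fold change of 0.81 ± 0.0521 (SE) at an adjusted p of 8.38e-22 by edgeR. It had 9075 counts over the 6 libraries, against 2358 for TSPAN8. The sources used here do not say whether reads were counted by strand. In GENCODE 29, 1 of the 3 basic coding transcripts of TSPAN8 starts 2100 bases inside LGR5, and the others start about 282 kb away from it. The 2 genes share no exonic base in that annotation, but the first exons of that transcript lie within an intron of LGR5. The part of LGR5 reads in the rise of TSPAN8 was not tested.

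**Figure D2:**
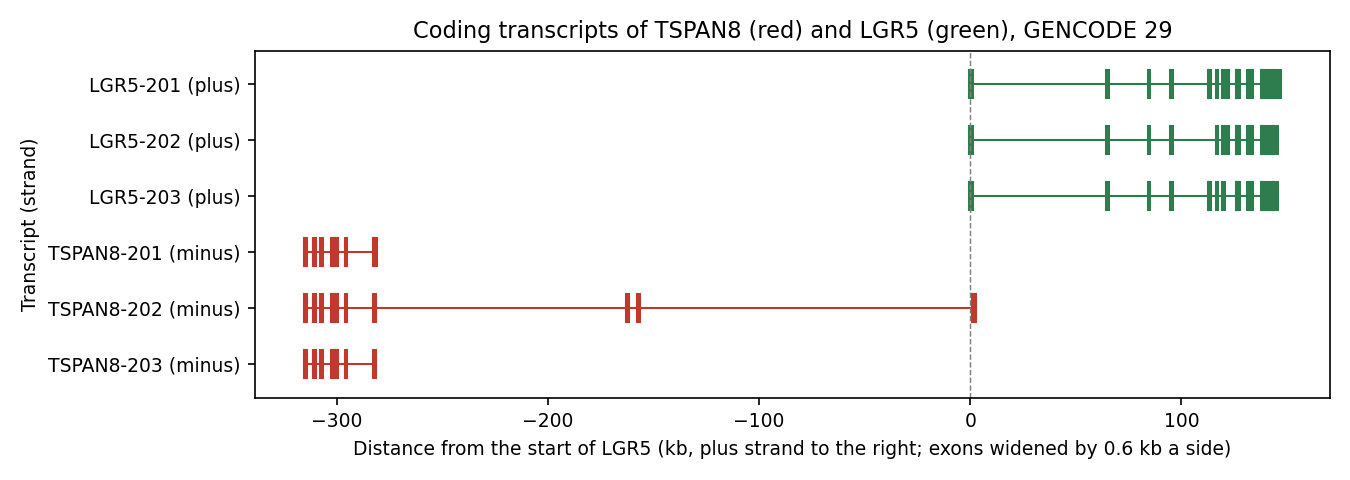
Coding transcripts of TSPAN8 (red, minus strand) and LGR5 (green, plus strand) from GENCODE 29, drawn by distance in kb from the start of LGR5, with boxes for exons. A single TSPAN8 transcript reaches into LGR5, by 2.10 kb, and its exons do not meet those of LGR5.

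The 5 genes whose profile over the 6 libraries lay nearest to that of TSPAN8 were IFI6, CEP290, RBM19, KIF5A and GPR63. Nearness was the Euclidean distance between log2 CPM values centred on each gene's own mean, ranked over 13231 genes with a symbol that averaged 1 CPM or more. The distances were 0.0852 for IFI6, 0.0992 for CEP290, 0.111 for RBM19, 0.119 for KIF5A and 0.120 for GPR63. Among the tetraspanins described, the nearest was TSPAN3 at 0.661 and the farthest TSPAN13 at 1.00. IFI6, an interferon-induced gene, averaged 11.965 CPM in ELAPOR1 cells and 8.62 CPM in vector cells. CEP290, RBM19 and KIF5A lie on chromosome 12, as TSPAN8 does, while IFI6 lies on chromosome 1 and GPR63 on chromosome 6. The share of chromosome 12 among the ranked genes was not counted. Of the other tested tetraspanins on chromosome 12, CD9, CD63, TSPAN9 and TSPAN31 were lower in ELAPOR1 cells and TSPAN11 did not pass. The part of chromosome location was not tested. The distances are a description over 6 libraries in 2 groups.

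TSPAN13 (ENSG00000106537, chromosome 7, 16753755 to 16784536, plus strand), a tetraspanin less studied than CD9 or CD81, fell the most of the 10. It stood at 45.8, 44.8 and 48.6 CPM in ELAPOR1 libraries, against 53.6, 62.7 and 57.4 CPM in vector libraries. The groups did not overlap. The log2 fold change of TSPAN13 came to -0.32 ± 0.0619 (SE), at an adjusted p of 3.85e-05. It was -0.26 without vector replicate 2, which had the highest level, at an adjusted p of 0.00429.

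CD151 (ENSG00000177697, chromosome 11, 832887 to 839831, plus strand) binds the laminin receptors, integrins alpha3 beta1 and alpha6 beta4, and links them to cell adhesion and migration. It stood at 139.9, 143.8 and 144.3 CPM in ELAPOR1 libraries, against 173.0, 159.8 and 161.9 CPM in vector libraries. All ELAPOR1 libraries lay below all vector libraries. The log2 fold change was -0.21 ± 0.0397 (SE) at an adjusted p of 2.81e-05. CD151 shares 257 exonic bases, 6.53% of its own, with POLR2L on the other strand. POLR2L, an RNA polymerase subunit gene with 6934 counts against 16956 for CD151, had a log2 fold change of 0.08 (adjusted p = 0.380).

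The integrin genes that pair with CD151 did not move as one. ITGA6 fell, to 434 ± 10.1 CPM in ELAPOR1 cells, against 521 ± 14.96 CPM in vector cells, a log2 fold change of -0.26. ITGB4 rose, to 281 ± 7.20 CPM in ELAPOR1 cells, against 230 ± 8.86 CPM in vector cells, at 0.29. ITGB1, ITGA3 and ITGA7 had log2 fold changes of -0.04, 0.25 and -0.06 and adjusted p of 0.359, 0.0927 and 0.675. Thus 1 of 5 rose and 1 fell, with a median of -0.045, while 21.4% of all tested genes passed.

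CD9, CD63 and CD81 are the tetraspanins most used to mark vesicles, and of these CD9 and CD63 fell, by nearly the same amount. CD9 (ENSG00000010278, chromosome 12, 6199715 to 6238271, plus strand), a partner of EWI proteins and of the precursor of HB-EGF, stood at 315, 316 and 330 CPM in ELAPOR1 libraries. In vector libraries CD9 stood at 343, 358 and 346 CPM. The log2 fold change was -0.12 ± 0.0322 (SE) at an adjusted p of 0.00273, and no ELAPOR1 library reached a vector library.

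CD63 (ENSG00000135404, chromosome 12, 55725323 to 55729707, minus strand), which sorts cargo into the inner vesicles of late endosomes, stood at 296, 293 and 299 CPM in ELAPOR1 libraries. In vector libraries CD63 stood at 306, 333 and 328 CPM. The highest ELAPOR1 library lay just under the lowest vector library, and the log2 fold change was -0.12 ± 0.0333 (SE) at an adjusted p of 0.00364. With limma on log2(FPKM + 1) and no filter it did not pass, at -0.14 with adjusted p = 0.0833. CD63 shares 237 exonic bases, 9.0% of its own, with the unnamed gene ENSG00000258056 on the other strand, which had 700 counts against 34040 for CD63 and a log2 fold change of 0.06 (adjusted p = 0.853). CD81 (ENSG00000110651, chromosome 11, 2376177 to 2397397, plus strand), a co-receptor of B cells and entry factor of hepatitis C virus, averaged 122 ± 2.96 CPM in ELAPOR1 cells and 126 ± 2.82 CPM in vector cells (SD, n = 3 each). On the log2 scale the fold change was -0.06 ± 0.0421 (SE) at an adjusted p of 0.378, and its groups overlapped. Whether CD9 and CD63 differed from CD81 in their response was not tested.

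The other 4 genes did not pass either. TSPAN15 (ENSG00000099282, chromosome 10, 69451465 to 69507666, plus strand), which brings the protease ADAM10 to the surface and directs it to substrates, had a log2 fold change of -0.08 ± 0.0517 (SE) (adjusted p = 0.309). Its levels were 69.7, 69.8 and 72.2 CPM in ELAPOR1 libraries, against 73.5, 77.2 and 72.7 CPM in vector libraries. TSPAN3 (ENSG00000140391, chromosome 15, 77041404 to 77083984, minus strand) stood at 119.9, 118.3 and 117.5 CPM in ELAPOR1 libraries, against 120.6, 124.2 and 121.7 CPM in vector libraries, a log2 fold change of -0.04 ± 0.0422 (SE) with adjusted p = 0.532. TSPAN6 (ENSG00000000003, chromosome X, 100627108 to 100639991, minus strand), which restrains antiviral signalling through the adaptor MAVS, stood at 93.8, 83.6 and 93.3 CPM in ELAPOR1 libraries, against 93.2, 93.3 and 95.9 CPM in vector libraries. Its log2 fold change of -0.06 ± 0.0484 (SE) had an adjusted p of 0.408, and it was -0.0095 without ELAPOR1 replicate 2, the lowest library. For TSPAN3 and TSPAN15 all ELAPOR1 libraries lay below all vector libraries, by small margins, and for TSPAN6 they overlapped. TSPAN1 (ENSG00000117472, chromosome 1, 46175073 to 46185962, plus strand), an epithelial tetraspanin, was the least abundant, with 67, 125 and 122 counts in ELAPOR1 libraries, against 122, 143 and 99 counts in vector libraries. ELAPOR1 replicate 1 was the low one, and the log2 fold change of TSPAN1 was -0.13 ± 0.174 (SE) with all libraries and 0.06 without that replicate. Genes overlapping TSPAN3, ENSG00000259652, ENSG00000269951 and ENSG00000278991, had 0, 104 and 116 counts over all libraries, and CD81-AS1, which shares 30 exonic bases with CD81, had 16.

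Levels between genes were compared per exonic length, in FPKM, that is the authors' count per kilobase of exon scaled to library size. CD63 was the most abundant of the 10, at 121 ± 1.2 FPKM in ELAPOR1 cells and 134 ± 5.70 FPKM in vector cells (SD, n = 3 each). It was followed in both groups by CD9, at 54.5 ± 1.39 FPKM in ELAPOR1 cells and 60.2 ± 1.24 FPKM in vector cells, and by CD151, at 36.3 ± 0.693 FPKM in ELAPOR1 cells and 42.6 ± 1.94 FPKM in vector cells. The vector level of CD63 lay at the 98.6th percentile of tested genes, and that of TSPAN1 at the 41.8th.

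The lower end of the order was also shared. TSPAN6, CD81, TSPAN3, TSPAN8 and TSPAN1 followed each other in that sequence in both groups, from 19.7 to 2.44 FPKM in ELAPOR1 cells and from 20.9 to 2.71 FPKM in vector cells, and no neighbours overlapped. TSPAN8 stood next to last in both, at 10.2 ± 0.922 FPKM in ELAPOR1 cells and 7.48 ± 0.265 FPKM in vector cells. Above these, TSPAN15 and TSPAN13 were ordered differently. In ELAPOR1 cells TSPAN15, at 26.4 ± 0.531 FPKM, stood above TSPAN13, at 23.0 ± 0.973 FPKM, without overlap, while in vector cells TSPAN13, at 29.1 ± 2.23 FPKM, and TSPAN15, at 28.2 ± 0.874 FPKM, overlapped.

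**Figure D3:**
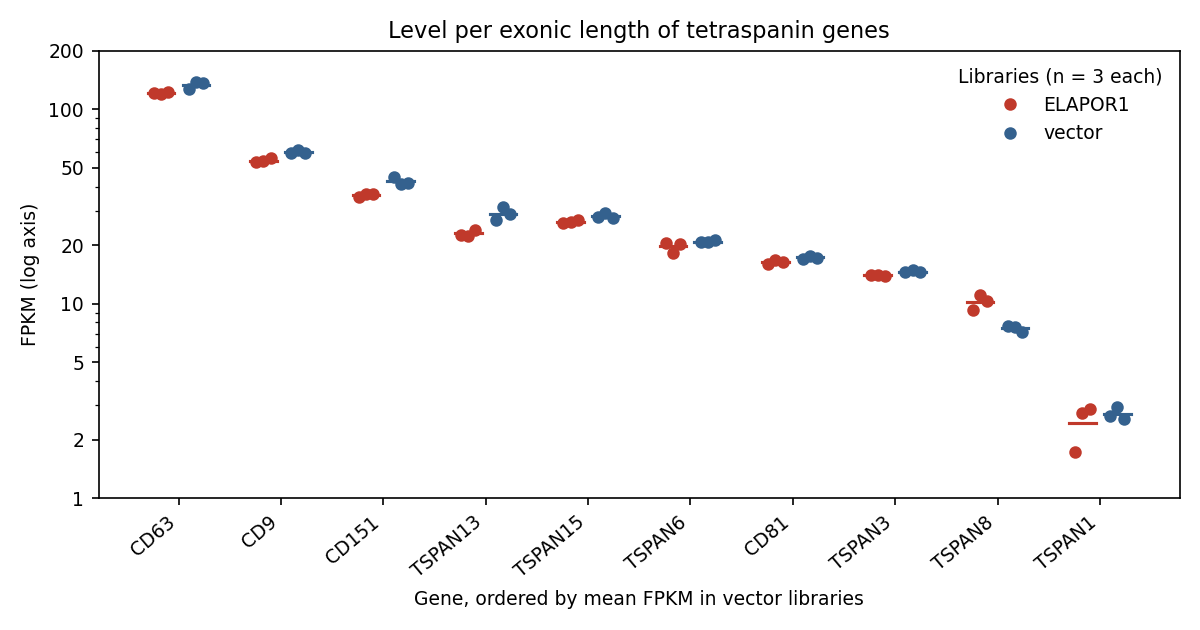
FPKM of each gene in each library on a log axis, red for ELAPOR1 and blue for vector, with lines for group means and genes ordered by their vector mean. CD63 leads at 121 FPKM in ELAPOR1 cells and 134 FPKM in vector cells, and TSPAN8 is the only gene whose ELAPOR1 points all stand above its vector points.

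The 10 genes carried most tetraspanin RNA in these cells. They made up 88.6 ± 0.125% of the summed FPKM of all 33 human tetraspanin genes in ELAPOR1 cells and 88.9 ± 0.382% in vector cells (SD, n = 3 each). CD63 with CD9 made up 48.0 ± 0.171% in ELAPOR1 cells and 48.3 ± 0.791% in vector cells. The share of TSPAN8 was 2.57%, 3.05% and 2.77% in ELAPOR1 libraries, against 1.95%, 1.86% and 1.79% in vector libraries. The summed FPKM of the 33 genes was 361, 364 and 372 in ELAPOR1 libraries, against 394, 409 and 402 in vector libraries. FPKM values are relative to all counts, and were not corrected for the counts that ELAPOR1 takes up.

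The family's other 23 genes gave a mixed picture, with 15 tested, 1 higher and 4 lower (33.3% of those tested, against 21.4% of all tested genes). The 15 had a median log2 fold change of -0.10, against 0.0041 for all tested genes. CD82, a metastasis suppressor also called KAI1, rose to 52.2 ± 0.248 CPM in ELAPOR1 cells, against 42.2 ± 2.12 CPM in vector cells, a log2 fold change of 0.31 at an adjusted p of 9.07e-05. TSPAN5, which like TSPAN15 belongs to the group that escorts ADAM10, fell to 46.7 ± 3.14 CPM in ELAPOR1 cells, against 62.5 ± 2.00 CPM in vector cells, at -0.42 with adjusted p = 4.60e-08. TSPAN9 fell by 0.49 and TSPAN17, another ADAM10 escort, fell by 0.29 on the log2 scale, with adjusted p of 0.000559 and 0.00407.

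TSPAN31 changed by -0.29 at an adjusted p of 0.0296. It shares 1369 exonic bases with CDK4 and 189 with AGAP2, both on the other strand, and their part in its value was not tested. CDK4 had 23465 counts against 1849 for TSPAN31 and an adjusted p of 0.97, and AGAP2 had 183 counts and a log2 fold change of 1.38 (adjusted p = 0.00222). The call of TSPAN31 was lost without ELAPOR1 replicate 1 or 2 or vector replicate 1 or 2, with adjusted p of 0.0511, 0.123, 0.117 and 0.0704, and with DESeq2, with 0.111. The ADAM10 escorts TSPAN14, TSPAN33 and TSPAN10 had log2 fold changes of -0.08, 0.36 and -0.22 and did not pass, so that 2 of the 6 escorts fell and 0 rose, while 11.4% of all tested genes were lower and 10.0% higher. TSPAN12, a co-receptor of Frizzled-4, had a log2 fold change of 0.44 at an adjusted p of 0.0800, and CD37, a lymphocyte tetraspanin, -1.08 with 9 to 32 counts per library (adjusted p = 0.0721). TSPAN2, TSPAN4, TSPAN11, TSPAN32 and ROM1 lay between -0.36 and 0.24 with adjusted p of at least 0.727. The 8 genes left untested had at most 8 counts in any library, and TSPAN16 and UPK1B had none.

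**Figure D4:**
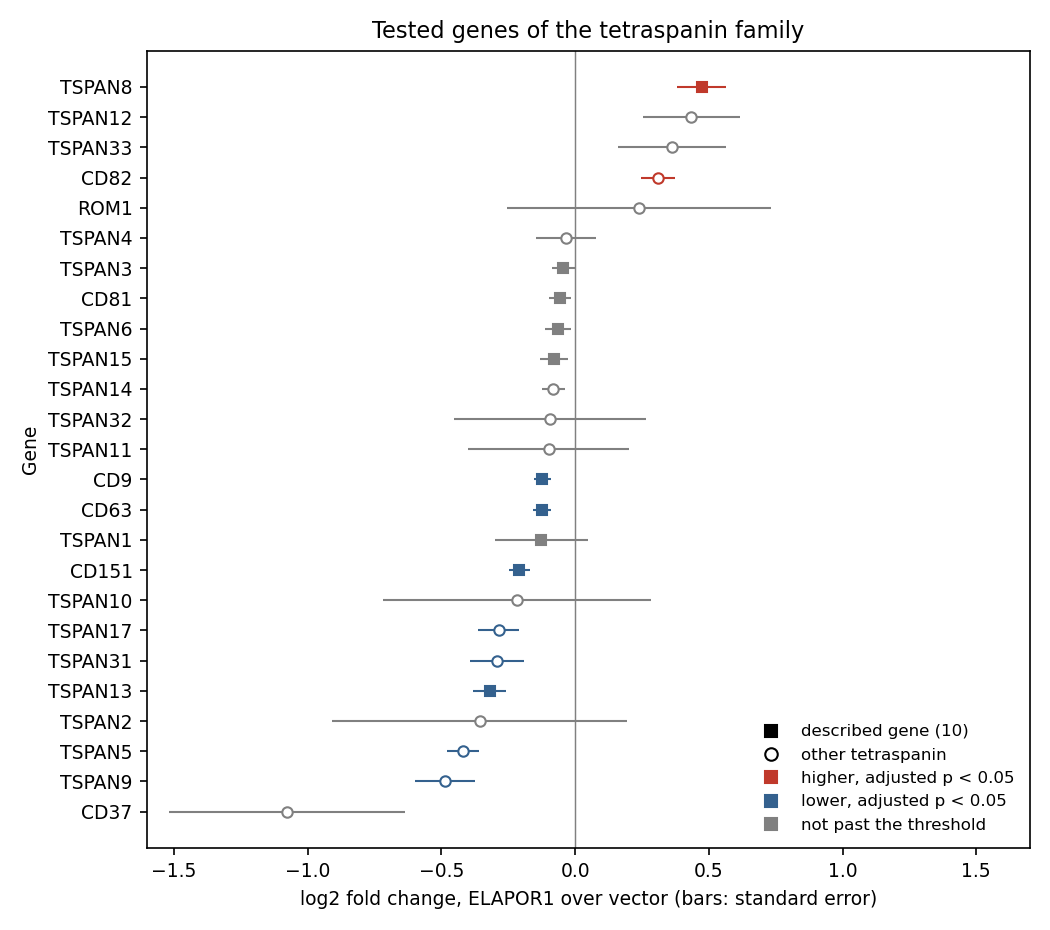
Log2 fold change of ELAPOR1 over vector for the 25 tested tetraspanin genes, with bars for the standard error. Filled squares are the 10 genes described and open circles the others, red where higher, blue where lower and grey where not past an adjusted p of 0.05. TSPAN8 and CD82 are the 2 that were higher and 8 were lower.

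Genes of proteins known to associate with tetraspanins were tested next, in lists described by counts and medians only. Over all 4 partner lists, integrins included, 18 of 30 tested genes passed, 9 higher and 9 lower (60.0%, against 21.4% of all tested genes). The median log2 fold change was -0.03. These lists, like the one of vesicle formation below, were chosen with earlier results of these data known, so such shares are description only. Among adhesion partners, 4 of 8 rose and 1 fell, with a median of 0.15. CD44, found with TSPAN8 in carcinoma cells, rose to 26.7 ± 0.429 CPM in ELAPOR1 cells, against 14.3 ± 1.73 CPM in vector cells. CLDN7, found there too, rose to 24.99 ± 2.33 CPM in ELAPOR1 cells, against 16.8 ± 1.36 CPM in vector cells. EPCAM, also of that group, averaged 435 ± 8.57 CPM in ELAPOR1 cells and 441 ± 13.2 CPM in vector cells, at an adjusted p of 0.759. The EWI family gene IGSF3 rose by 0.60 on the log2 scale, and CDH1, which encodes E-cadherin, changed by -0.76. IGSF8 and PTGFRN, the EWI genes whose proteins bind CD9 and CD81, had log2 fold changes of -0.35 and 0.04 and did not pass.

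Among proteases, ligands and receptors, 1 of 8 rose and 4 fell, with a median of -0.04. Over all tested genes, 10.0% were higher and 11.4% lower. ADAM10 fell to 152 ± 7.62 CPM in ELAPOR1 cells, against 172 ± 4.76 CPM in vector cells, at -0.19 with adjusted p = 0.000192. TIMP1, a metalloprotease inhibitor that binds CD63, changed by -0.43, and EGFR by -1.11 at 1.49 CPM in ELAPOR1 cells and 3.2025 CPM in vector cells. TGFA, an EGFR ligand, rose by 0.21 at an adjusted p of 0.0136, which was 0.0912 without ELAPOR1 replicate 2 and 0.110 without vector replicate 1, and 0.0673 with DESeq2. HBEGF, the ligand precursor that CD9 binds, had a log2 fold change of 0.26 (adjusted p = 0.0503).

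Of 9 tested genes of signalling, acylation and sorting, 3 rose and 3 fell, with a median of -0.06. The shares over all tested genes were 10.0% higher and 11.4% lower. ZDHHC2, which attaches palmitate to CD9 and CD151, fell to 15.2 ± 1.55 CPM in ELAPOR1 cells, against 24.8 ± 2.70 CPM in vector cells, at -0.71 with adjusted p = 2.28e-08. PRKCA, a kinase recruited by CD9, CD81 and CD151, rose by 0.35, and CD46 by 0.18. IFITM3 rose by 0.23 at an adjusted p of 0.0150, which was 0.0802 without ELAPOR1 replicate 2, 0.0673 without vector replicate 1, 0.0563 without vector replicate 3 and 0.0604 with DESeq2.

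Of 21 tested genes of vesicle formation, 3 rose and 4 fell, 33.3% in all against 21.4% of all tested genes, with a median of -0.03. With each of 3 limma settings on FPKM, 0 were higher and 4 lower. SDC4, a syndecan, fell to 66.8 ± 2.36 CPM in ELAPOR1 cells, against 118 ± 4.66 CPM in vector cells, at -0.82 with adjusted p = 7.99e-24. HSPA8 and ARF6 changed by -0.24 and -0.21. RAB27A, a GTPase of vesicle release, rose by 0.34 at an adjusted p of 0.00700, which was 0.0746 without vector replicate 3 and 0.0790 with limma on log2(FPKM + 1). SDCBP, PDCD6IP and TSG101, which encode syntenin, ALIX and an ESCRT-I subunit, had log2 fold changes of -0.04, 0.05 and -0.02 and did not pass. RNA levels do not measure vesicle number or the tetraspanin protein on vesicles.

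**Figure D5:**
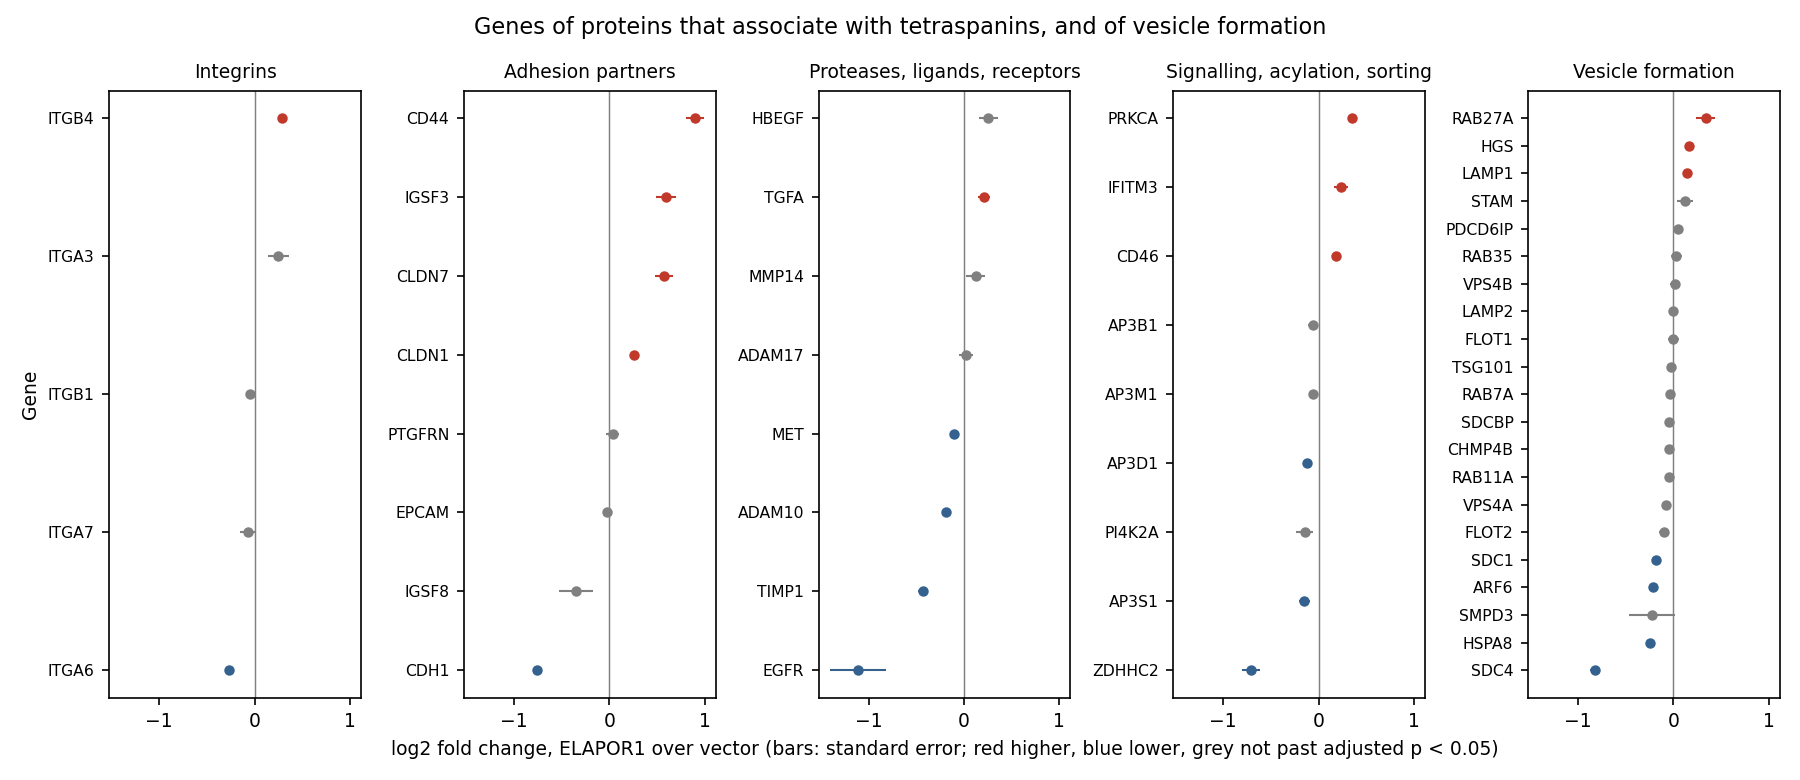
Log2 fold change of ELAPOR1 over vector, with standard error bars, for tested genes of 4 partner lists and of vesicle formation, 1 list per panel. Red is higher, blue lower and grey not past an adjusted p of 0.05. Both directions occur in every panel, with CD44 at 0.90 the highest and EGFR at -1.11 the lowest.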

How the data were processed

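Read counts per gene from poly(A) libraries of 6 samples were deposited without normalization, and the authors' deposited FPKM values were recomputed from count, exonic length and library size within 0.01 for all 142222 values of genes with a count. The submitters' processing notes name HISAT2 2.0.1, cutadapt 1.9.1, DESeq2, HTSeq 0.6.1 and the build GRCh38. The authors' deposited comparison table holds log2 fold changes, their standard errors as a score, mean normalized signal and p-values. Per the labels, 1 ug of total RNA and random primers were used per library. Columns named K were matched to ELAPOR1, whose older symbol is KIAA1324, and NC to the negative control.

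The test on counts was edgeR's (4.0.16, under R 4.3.3), with its default expression filter, TMM scaling, a two-sided quasi-likelihood test and Benjamini-Hochberg adjustment over 16003 genes. Standard errors divide the absolute log2 fold change by the root of the F statistic. Alternatives used RLE scaling or none, other filters, DESeq2 1.42.0, a replicate block, limma 3.58.1 on log2(FPKM + 1) or log2(FPKM + 0.1), and fits omitting ELAPOR1 or 1 library. Gene symbols, lists and genes to name were chosen with earlier results of these data known. The genes named are ELAPOR1, the 10 tetraspanins, other tested tetraspanins, up to 4 called genes per list by size of change, overlapping genes and the 5 profiles nearest TSPAN8; further genes are named after their values were seen. For pairs of libraries of 1 group the chi-square averaged 2.45 to 3.64 per gene, above sampling noise, so none were merged. The calculations were tested on simulated data. Of planted changes of 1.25-fold, 40 of 67 were recovered, and of 2-fold changes 65 of 66, with 9 false calls among 169. Changes smaller than 1.25-fold were not simulated. The value of 1 marker gene is not reported here. Totals of 16401813 to 20571924 counts per library limit the precision, among the 10 tetraspanins for TSPAN1 most.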

Additional observations from a re-analysis of the deposited data

How the results depend on the processing

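All 5 calls among the 10 tetraspanins held under the 16 alternatives, with one exception: CD63 had a log2 fold change of -0.14 (adjusted p = 0.0833) with limma on log2(FPKM + 1) without a filter, which tests 30470 genes. Leaving out 1 library gave 5 called genes each time, with log2 fold changes of 0.41 to 0.53 for TSPAN8, -0.38 to -0.26 for TSPAN13, -0.23 to -0.18 for CD151, -0.15 to -0.10 for CD9 and -0.16 to -0.10 for CD63, and of -0.25 to 0.06 for TSPAN1 (0.0611 without ELAPOR1 replicate 1). None of the 35 named genes that passed changed direction under these alternatives.

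Limma on log2(FPKM + 1), on log2(FPKM + 0.1) and on log2(FPKM + 1) without a filter called 2133, 2098 and 1378 of all genes, against 3427 with edgeR, which called 3053 without a filter, and DESeq2 called 2339. These limma settings each called 0 genes of vesicle formation as higher and 4 as lower, against 3 and 4, and the unfiltered one called 3 other tetraspanins, against 5, and 11 partners, against 18. Leaving out 1 library gave 2723 to 3187 called genes in all, 4 to 5 other tetraspanins, 14 to 17 partners and 6 to 7 vesicle genes. Of 54 named genes, 35 passed, 22 of these under every alternative, and 13 lost the call in at least 1, namely CD63, TSPAN9, TSPAN31, IGSF3, EGFR, TGFA, ADAM10, IFITM3, RAB27A, CEP290, RBM19, KIF5A and GPR63. CD37 passed at 0.0428 under the filter of 10 counts. In the runs without 1 library, log2 fold changes ran from -0.12 to 0.0374 for TSPAN4, -0.47 to 0.0412 for TSPAN10, -0.35 to 0.11 for TSPAN11, -0.56 to 0.11 for TSPAN32, -0.20 to 1.24 for ROM1 and -0.14 to 0.16 for ENSG00000258056, none of which passed.

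Same-numbered libraries deviated from their group means with correlations of -0.0216, -0.0345 and -0.0209, so no shared shift by number was seen. These correlations cannot tell whether same-numbered libraries were handled together. A replicate block gave 3361 called genes and the same count, 5, of the 10 tetraspanins. Among the 10 tetraspanins, TSPAN1 had the fewest counts (678 in all, SE 0.174). Outside these, the tested family genes TSPAN2 and TSPAN10, with 60 and 76 counts, had fewer still.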
